A study of Drosophila melanogaster with 2 samples.

Results

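Deep intronic peaks are sites where CG18476-eGFP chromatin was recovered inside a gene, outside every annotated exon, with the summit more than 5000 bp from the nearest transcription start site (TSS) of any gene. There were 397 of them in the authors' reproducibility-thresholded peak list, 9.94% of that list, beside 3598 other thresholded peaks. The rule for them uses position alone, that of each summit in the Ensembl gene models, with transposable element entries left out. The class was chosen with earlier results of these data known. All 397 lay in an intron of at least 1 annotated transcript. Just inside the limit stood a peak in cno, which encodes an adherens junction scaffold, at 5001 bp with a pooled signal of 114, and one in ed, an adhesion molecule of the immunoglobulin superfamily, at 5009 bp with 87.3. Just outside it stood a peak in CG30015 at 4997 bp with a signal of 70.6 and one in ush, a Friend of GATA cofactor, at 4980 bp with 192.

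The study is a chromatin immunoprecipitation and sequencing (ChIP-seq) experiment with 1 group of 2 biological replicates. Whole embryos of Drosophila melanogaster, males and females together, were collected at 0 to 24 h of age. They carried a transgene encoding CG18476 with eGFP, a green fluorescent protein, at its C terminus, and an antibody against GFP was used. Chromatin had been sonicated to 200 to 800 bp. Both replicates carry the same transgene, so no genotypes or treatments could be compared, and neither an untagged strain nor a mock precipitate was analysed here. In a mixture of all embryonic tissues and stages, the share of cells bound and the occupancy per cell cannot be told apart.

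CG18476 is listed by RefSeq as an uncharacterized protein encoded on 3R. ChIP-seq reads where a tagged protein, or another protein crosslinked to it, sat on DNA. In flies, long introns of developmental genes often hold enhancers, stretches of DNA bound by transcription factors that switch the host gene or a neighbouring gene on in particular cells. Such factors recognise short sequences, which recur at the centres of the regions they occupy.

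A shared sequence was found at the centre of a subset of the deep intronic peaks. A weight matrix 22 bases long was built from sites in the thresholded peaks outside the deep intronic class, starting from the letters CCCTCG. Those letters were picked after short words at the summits of the deep intronic peaks had been compared with their flanks, so the values below describe a pattern in the peaks where it was noticed. The commonest bases of the matrix were AACT at positions 1 to 4, then T at 7, A at 10, C at 12 and CCCTCGC at 15 to 21, counted from its 5′ end. Of the deep intronic peaks, 36 held a match with all of its bases within 50 bp of the summit. The strongest 12 of these that can be printed are shown here because they carry a match. Those in CG42238 and sick lack the letters CCCTCG and scored 15.2 and 15.9, near the minimum of 14.5 bits described below. Each line runs 5′ to 3′ on the strand of the match, and capitals mark the 22 matched bases. Positions are in dm6, and sequences come from RefSeq's copy of that assembly.
kirre (chrX:3022658-3022705, + strand): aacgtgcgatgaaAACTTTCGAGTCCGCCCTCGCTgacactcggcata
ssp3 (chr2L:18925009-18925056, + strand): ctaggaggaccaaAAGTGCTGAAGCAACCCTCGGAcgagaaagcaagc
fz (chr3L:14300897-14300944, - strand): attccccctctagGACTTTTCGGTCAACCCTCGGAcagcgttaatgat
Eip75B (chr3L:17992888-17992935, + strand): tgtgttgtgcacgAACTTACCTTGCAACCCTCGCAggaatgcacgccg
Wnt4 (chr2L:7262733-7262780, - strand): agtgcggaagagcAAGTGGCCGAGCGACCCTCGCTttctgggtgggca
nkd (chr3L:19017522-19017569, - strand): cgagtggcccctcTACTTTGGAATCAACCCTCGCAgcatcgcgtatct
olf413 (chr3L:22192292-22192339, - strand): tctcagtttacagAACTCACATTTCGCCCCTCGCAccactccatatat
CG42238 (chr2L:21026809-21026856, + strand): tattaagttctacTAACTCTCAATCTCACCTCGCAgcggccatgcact
MCU (chr3L:6561212-6561259, - strand): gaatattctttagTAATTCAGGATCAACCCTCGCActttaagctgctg
sick (chr2L:19903076-19903123, + strand): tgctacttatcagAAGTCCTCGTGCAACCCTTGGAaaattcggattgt
lncRNA:CR45962 (chr3L:22393174-22393221, - strand): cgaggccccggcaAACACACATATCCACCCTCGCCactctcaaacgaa
Wnt4, second peak (chr2L:7265154-7265201, + strand): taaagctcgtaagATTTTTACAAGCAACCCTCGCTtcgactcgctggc

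Most deep intronic peaks held no such match and were rich in A and T at the summit. The windows of 3 of the strongest are shown for contrast, on the + strand of dm6, with the longest unbroken run of A and T in capitals. Gug encodes the Atrophin corepressor, simj a subunit of the nucleosome remodelling and deacetylase complex, and CG32486 is named only.
Gug (chr3L:8458306-8458406): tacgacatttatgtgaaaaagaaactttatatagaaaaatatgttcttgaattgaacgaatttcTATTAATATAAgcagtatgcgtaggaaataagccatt
CG32486 (chr3L:3060758-3060858): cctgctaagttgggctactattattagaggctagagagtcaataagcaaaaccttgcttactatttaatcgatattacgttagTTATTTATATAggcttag
simj (chr3L:10682866-10682966): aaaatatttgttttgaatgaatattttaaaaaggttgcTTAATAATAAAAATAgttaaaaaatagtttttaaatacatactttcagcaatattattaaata

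The matrix matches were concentrated at the summits. A match lay within 50 bp in 36 of the 397 windows (9.07%, exact binomial 95% interval 6.43 to 12.3%). The windows of the same length centred 1000 bp to either side held 2 and 0. Among all thresholded peaks 4.63% of windows held a match. That figure includes the peaks the matrix was built on. No deep intronic site entered the matrix, but its starting letters and minimum score were chosen with these peaks in view, so the contrast with the flanks is not independent. The 4191 deep intronic regions that did not enter the thresholded list had a match in 41 windows (0.978%, 0.703 to 1.32%). Read counts are not part of the lists, so here and below intervals cover the counting of peaks only.

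The score of a window, the summed log2 ratio of each base's frequency in the matrix to its background frequency, was cut at a minimum of 14.5 bits to call a match. The 36 windows with a match scored up to 26.9 bits, with a median of 19.6, and the other 361 had a median of -4.69 and reached 13.6. Few windows, 3 in all, fell within 2 bits below the minimum, which was the 99.9th percentile of the windows beside the other peaks. A lower minimum, at the 99th percentile, raised the number from 36 to 41. The summits of the 36 windows lay in the introns of 33 genes, with a single host counted per peak. Of the matches, 17 were on the strand of that host, so neither orientation prevailed. Windows could reach into exons. The intron that holds the Eip75B summit ends at 17992907, inside the printed match. Of all the matches whose centre lay within 1000 bp of a deep intronic summit, 42 of 66 were within 50 bp of it, counting matches that ran over the window's edge, and 11 were within 10 bp.

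**Figure D1:**
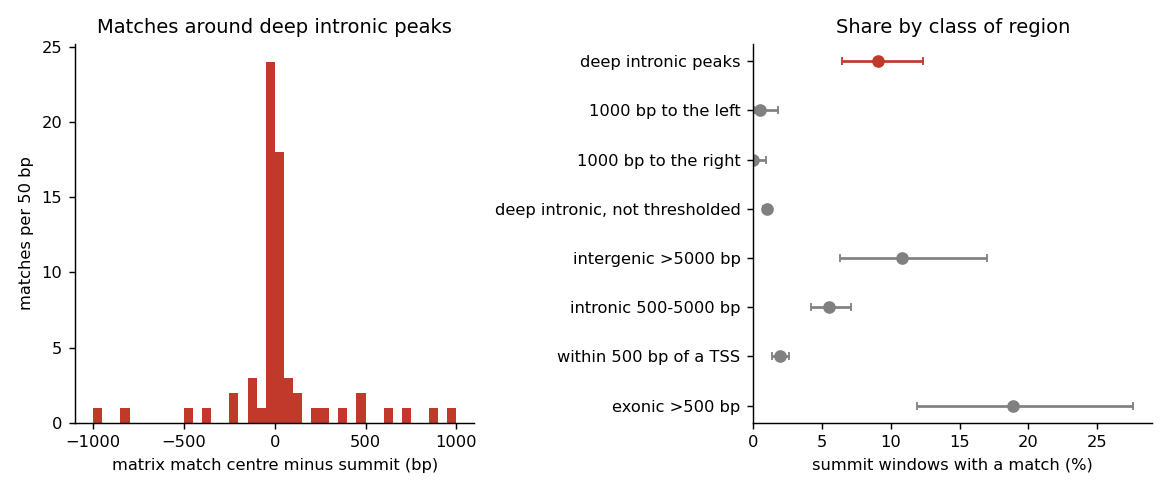
Left, number of matrix matches per 50 bp against the distance of the match centre from the summit (bp) for the 397 deep intronic peaks. Right, percent of summit windows with a match in each class of region, with exact binomial 95% intervals; 42 of the 66 matches lay within 50 bp, and 9.07% of deep intronic windows held one against 0.504% and 0% in the flanks.

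Matches were present at 17 of the strongest 100 deep intronic peaks (17.0%, 10.2 to 25.8%) and at 19 of the other 297 (6.40%, 3.90 to 9.81%). The starting letters were noticed partly in the strongest peaks, so this difference is a description only. The median pooled signal was 110 (quartiles 80.5 to 174) with a match and 87.1 (71.1 to 117) without. The replicates gave medians of 47.4 against 38.2 in replicate 1 and 61.8 against 50.4 in replicate 2, the same order in both. The ranges overlapped widely, since peaks without a match reached a signal of 421 at Gug and peaks with one fell to 61.1 at lncRNA:iab8, an RNA of the bithorax complex.

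The share of windows with a match differed between classes of position. It was 10.8% (6.31 to 17.0%) at intergenic peaks over 5000 bp from a TSS, 5.52% at intronic peaks 500 to 5000 bp from a TSS, 18.9% (11.9 to 27.6%) at exonic peaks and 1.93% (1.38 to 2.63%) at peaks within 500 bp of a TSS. Deep intronic and deep intergenic peaks thus had overlapping intervals, and both stood above promoter peaks. Peaks of those other classes supplied the sites of the matrix, and the deep intronic peaks its starting letters, so none of these values is independent of it.

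Read from the sequence side, most matches were not at a thresholded peak. The matrix had 410 matches in deep intronic sequence, of which 42 (10.2%, 7.48 to 13.6%) were within 50 bp of a thresholded summit, close to the 10.6% over all 6 chromosome arms. A larger share, 88 (21.5%), lay within 50 bp of some summit of the authors' list of pooled peaks and background. Among the 84 highest-scoring of the 410, scored at or above the median of matches at thresholded summits, 22 (26.2%, 17.2 to 36.9%) were at a thresholded summit and 44 (52.4%) at a pooled one. The higher-scoring matches were therefore more often at a listed summit, a score cut that itself came from thresholded peaks.

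The genes named here for their matched peaks were chosen after their values were seen. The strongest match-bearing peak of all lay in intron 4 of kirre, whose product joins founder myoblasts to fusion-competent cells, 33616 bp from the nearest TSS. Its signal was 260 in replicate 1 and 339 in replicate 2. The next lay in ssp3 at 238 and 256, and the one after it in jing at 148 and 205.4. The peak in fz, a Frizzled receptor, had 148 and 158. The ligand gene Wnt4 held 2 matched peaks, with 84.2 and 122 at the first and 50.02 and 92.5 at the second. The matched peak in nkd, an inhibitor of Wnt signalling, had 85.2 and 120, and that in drl, a Ryk-type Wnt receptor, 40.6 and 45.8. The single peaks in fz2 and in dnt, with pooled signals of 79.6 and 76.7, held no match. Over the list of signalling genes, 5 of 30 deep intronic peaks held a match, 4 of 32 in cell adhesion and axon guidance genes and 2 of 7 in RNA-binding protein genes. The counts were 2 of 25 for neural and mesodermal factors, 1 of 18 for nuclear receptors and ecdysone response genes and 1 of 13 for chromatin regulators. None was found among 4 peaks in Hox genes, 6 in segmentation genes, 3 in channel and synaptic genes or 4 in cytoskeletal genes. The first 3 shares stand above the 9.07% over all deep intronic peaks, on few peaks each, and no test of a list was made.

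Windows with a match were richer in G and C, as the matrix is itself. Over all 397 windows the mean G+C content was 32.7% (SD 8.80), against 40.5% and 39.6% in the flanking windows and 36.6% at the deep intronic regions that were not thresholded. It was 33.1% over all thresholded peaks, so the low value was not particular to this class. Windows with a match averaged 46.5% (SD 7.56) and those without one 31.4% (SD 7.68). With the 22 matched bases left out, the remaining 79 bases of the windows with a match averaged 44.4% (SD 9.18, n = 36). A run of 15 or more A and T stood in 77 windows (19.4%), against 9.32% and 9.82% in the flanks and 20.8% of all thresholded windows. At the deep intronic regions that were not thresholded the share was 17.8%.

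The dip in G+C was flanked by shoulders that promoter peaks lacked at the same distances. In 25 bp steps, deep intronic peaks had 31.7% at the summit, 44.0% at 150 to 250 bp and 40.2% at 800 to 1000 bp. Peaks within 500 bp of a TSS had 31.8%, 41.4% and 44.9% at the same distances, so their G+C was higher far from the summit than beside it. Intronic peaks 500 to 5000 bp from a TSS had the shoulders too, with 31.7%, 42.7% and 40.5%. Deep intronic regions outside the thresholded list had a shallower profile of 35.7%, 41.3% and 40.5%. The part of base composition in recovery was not tested.

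**Figure D2:**
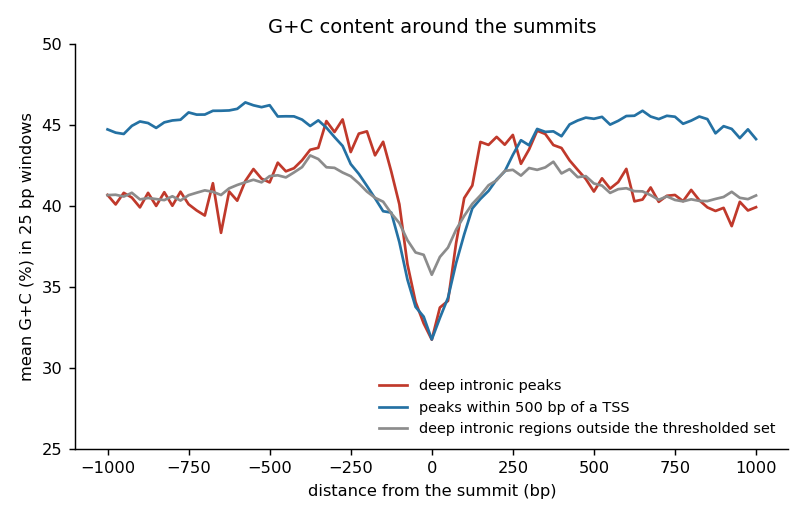
Mean G+C (%) in 25 bp windows against the distance from the summit (bp) for deep intronic peaks, peaks within 500 bp of a TSS and deep intronic regions outside the thresholded list. The first reach 31.7% at the centre and 44.0% at 150 to 250 bp, above their level of 40.2% at 800 to 1000 bp, while promoter peaks go from 41.4% to 44.9%.

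Sites of known factors were searched on both strands in the same windows, and 6 of the 24 motifs are given here. The TATA box letters TATAAA stood in 82 deep intronic windows (20.7%), 53 and 49 flank windows, and 23.2% of all thresholded windows. The letters TATCGATA, the DNA replication-related element bound by Dref, were in 2 (0.504%) and in no flank window, against 1.38% of all thresholded windows. Those 2 peaks lay in lncRNA:CR44357, with signals of 50.5 and 52.5 in replicates 1 and 2, and in CG6966, with 48.2 and 12.01. A pair of CGATA, letters that overlap those of that element, stood in 5 windows (1.26%), in 0 and 5 flank windows and in 3.10% of all thresholded windows. The E-box CAGCTG was in 9 windows (2.27%), fewer than the 18 and 17 flank windows, and in 3.08% of all thresholded windows. The letters GCCATTT, the core of the Pho site through which Polycomb complexes are recruited, were in 6 windows (1.51%), against 17 and 12 in the flanks and 2.05% overall. The repeat CACACACA was in 2 (0.504%), against 11 and 15 in the flanks and 0.851% overall. The repeat, the Pho letters and the E-box were thus less frequent at the summits than beside them, and TATAAA was more frequent. The sizes of the first 3 differences rest on few windows. The E-box difference of -2.14 percentage points was -0.998 and -0.532 in the strongest regions of replicates 2 and 1 alone. The repeat's difference of -2.77 was -1.20 in replicate 1 alone, and that of the Pho letters, -2.14, was -0.309 in the stronger 50% of the list. At deep intronic regions outside the thresholded list, TATAAA stood in 20.3% of windows, close to the 20.7% at the peaks. The shares there were 2.93% for the E-box, 2.98% for the Pho letters and 2.22% for the repeat. Summit windows were poorer in G and C than their flanks, and the part of that in these differences was not tested.

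Deep intronic sequence was sparsely occupied for its length. It made up 28.3 Mb, 21.1% of the 6 arms, and held 14.0 thresholded peaks per Mb (exact Poisson 95% interval 12.7 to 15.5). The whole of the arms held 29.8 per Mb, introns at 500 to 5000 bp from a TSS 39.8, sequence within 500 bp of a TSS 111, and intergenic sequence over 5000 bp from a TSS 7.36. Deep introns thus stood between near introns and deep intergenic sequence, with intervals that did not overlap. Among the arms the density ran from 10.2 per Mb on 2R to 18.1 on 2L, with 15.6 on 3L, 11.8 on 3R and 17.0 on X. Chromosome 4 held none in 0.259 Mb, which allows up to 14.2 per Mb, although 90 regions of the pooled list lay there.

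A smaller share of deep intronic regions than of all regions passed from the authors' pooled list into the thresholded one. Of 4588 pooled regions whose summits met the rule, 397 entered (8.65%, 7.86 to 9.50%), against 13.3% of all pooled regions. The authors' lists before thresholding hold 30000 regions each, so shares of them depend on that length. The share was 13.2% for introns near a TSS, 23.2% within 500 bp of a TSS and 9.33% (8.41 to 10.3%) for intergenic regions at 500 to 5000 bp. It was 7.61% for deep intergenic regions and 2.89% for exonic ones, so deep introns were not the lowest class. The weakest deep intronic peaks, in Jupiter (60.7), which encodes a microtubule-binding protein, and NetA (60.6), a netrin guidance cue, sat near the bottom of the whole thresholded list.

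**Figure D3:**
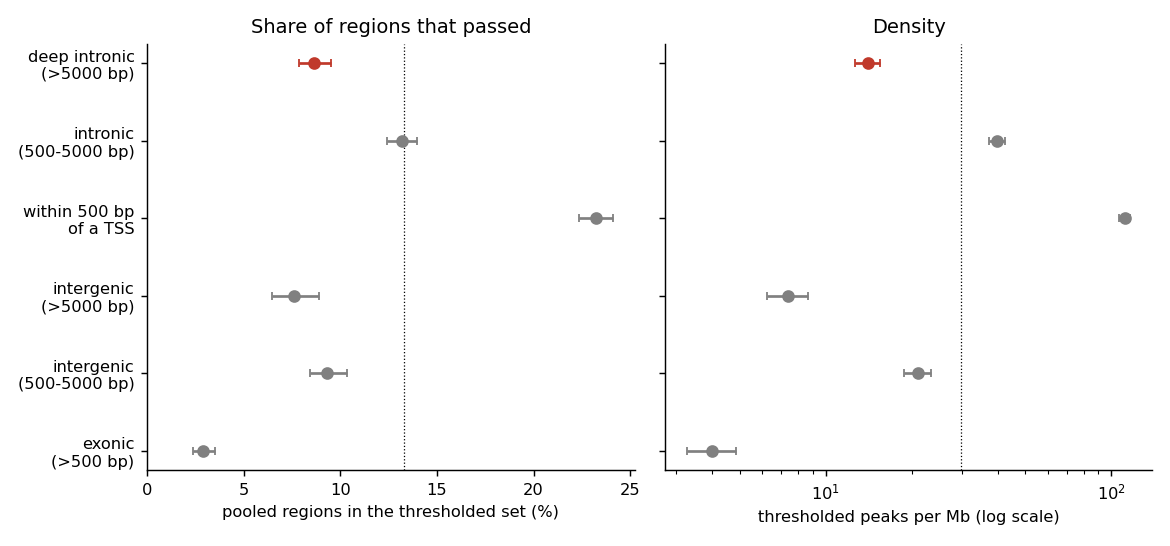
Left, percent of pooled regions of each class that entered the thresholded list; right, thresholded peaks per Mb of sequence of that class (log scale). Points carry exact binomial or Poisson 95% intervals and the dotted lines mark all regions, 13.3% and 29.8 per Mb; deep intronic regions stand at 8.65% and 14.0 per Mb.

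The signal of deep intronic peaks was modest in both replicates. The pooled signal, the authors' own value for each peak, had a median of 87.7 (quartiles 71.2 to 122), against 98.2 (74.5 to 147) over all thresholded peaks. The medians were 38.6 against 45.3 in replicate 1 and 50.8 against 54.8 in replicate 2, so the order was the same in each. A signal above 200 was reached by 28 deep intronic peaks (7.05%), against 13.9% of all thresholded peaks. Replicate 2 gave the higher value at most sites, with a median ratio to replicate 1 of 1.31 (quartiles 1.03 to 1.67), beside 1.24 over all peaks; the values are not scaled to depth. The median sum of both replicates' signals was 0.986 of the pooled signal.

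Agreement between the replicates was close to that over the whole list or somewhat below it, depending on the measure. A peak was called matched when one of each replicate's strongest regions, as many as there are thresholded peaks, covered at least 0.5 of its length and vice versa. By that count 235 deep intronic peaks (59.2%, 54.2 to 64.1%) were matched in both replicates, against 63.8% of all thresholded peaks, a value inside that interval. With an overlap of 0.8 the values were 47.6% and 47.7%, and against all regions of each replicate 88.7% and 87.9%. Since the authors selected the list for reproducibility, the replicates' own lists were compared too. Of 376 deep intronic regions among the strongest of replicate 1, 68.9% (63.9 to 73.5%) were matched in replicate 2, against 70.8% of all its strongest regions. Of 401 in replicate 2, 65.1% (60.2 to 69.8%) were matched in replicate 1, against 70.7%. The interval of the second comparison excludes the overall value and that of the first does not. Peaks with and without a matrix match were matched in both replicates in 58.3% (40.8 to 74.5%) and 59.3% (54.0 to 64.4%) of cases, values within each other's interval.

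**Figure D4:**
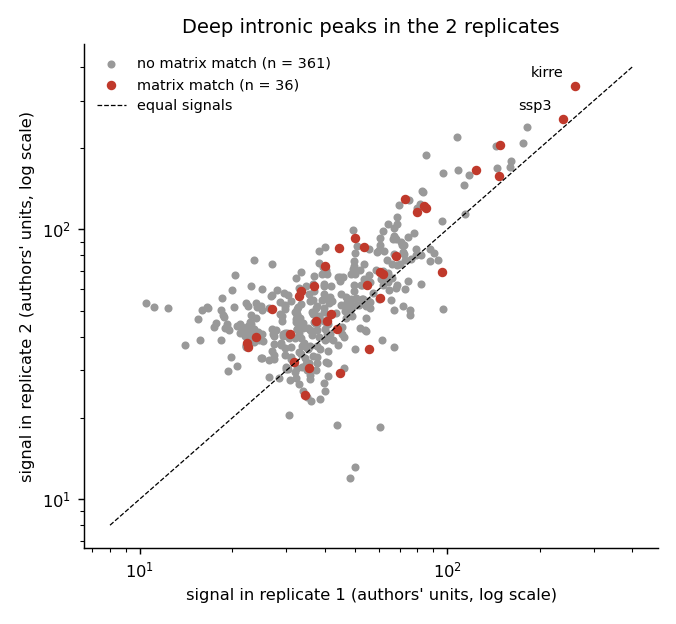
Signal of each deep intronic peak in replicate 2 against replicate 1 (authors' units, both axes log scale), with the 36 peaks that hold a matrix match in red and the other 361 in grey; the dashed line marks equal signals. The strongest peak, in kirre, stands at 260 and 339, and most points lie above the line.

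Density fell with distance from the nearest TSS. It was 23.1 per Mb at 5 to 7.5 kb, 20.6 at 7.5 to 10 kb, 15.4 at 10 to 15 kb, 7.58 at 15 to 20 kb, 11.9 at 20 to 30 kb and 2.04 beyond 30 kb. The fall was not even: the bin at 15 to 20 kb had 23 peaks and that at 20 to 30 kb 33, with overlapping intervals. Beyond 30 kb, where 12 peaks lay, the pooled list was thin as well, with 36.6 regions per Mb against 162 over all deep intronic sequence. The median distance was 8444 bp (quartiles 6562 to 12708). The farthest lay in hth, a homeodomain cofactor of Hox proteins, at 47620 bp (39.6 and 57.3 in replicates 1 and 2). Next came a peak in mamo, a BTB zinc finger factor, at 42326 bp (79.3 and 80.4). The nearest TSS was that of the host gene for 237 peaks (59.7%) and that of another gene for the rest. This share was not computed for deep intronic sequence or for regions not thresholded, so it describes the peaks only.

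First introns held more than their share. A first intron of some transcript contained 220 deep intronic peaks (55.4%, 50.4 to 60.4%), but made up 31.2% of deep intronic sequence and held 41.4% of the 4191 regions that were not thresholded. Within 30 kb of a TSS the values were 56.4% of 385 peaks and 36.5% of the sequence. The host introns were long, with a median of 18417 bp and a range of 907 to 126467 bp. Only 1 peak (0.252%) had its summit in an annotated transposable element, against 0.350% of all thresholded peaks. The share was 0% at intronic peaks 500 to 5000 bp from a TSS and at deep intergenic peaks. Low shares were thus not particular to this class. Such elements made up 9.51% of deep intronic sequence and held 1.22% of the deep intronic regions not thresholded.

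The peaks were spread over 253 host genes, 14.0% of the 1812 genes that contain any deep intronic sequence (12.4 to 15.6%). Of these hosts 242 encode proteins and 11 are annotated as noncoding RNAs. A single peak was found in 154 hosts, 2 peaks in 62, 3 in 19 and 4 or more in 18. Hosts were long, with a median of 20.7 kb of deep intronic sequence against 4.47 kb in the other genes.

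Host genes more often had a peak at their own promoter. A thresholded summit lay within 500 bp of a TSS in 83 hosts (32.8%, 27.1 to 39.0%), against 306 of the 1559 other genes with deep intronic sequence (19.6%, 17.7 to 21.7%). The same order was seen among genes of like length. For genes with 15 to 40 kb of deep intronic sequence, 49.3% of the 67 with a promoter peak (36.8 to 61.8%) were hosts, against 22.5% of the 285 without one (17.7 to 27.8%). For those with 5 to 15 kb the values were 22.2% (14.1 to 32.2%) and 12.6% (9.43 to 16.4%), and above 40 kb 61.3% (42.2 to 78.2%) and 32.0% (24.1 to 40.9%). Below 5 kb, where 839 of the genes lay, they were 5.47% (2.76 to 9.58%) and 2.82% (1.68 to 4.42%). The intervals overlapped in the bins below 15 kb and not in those above it. Most hosts had no promoter peak.

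The gene lists used here were chosen with earlier results of these data known, so their values describe and do not test. Density was above the overall 14.0 per Mb in lists of regulators and signalling genes, and below it in lists of neuronal and RNA-binding proteins. Chromatin regulators held 13 deep intronic peaks in 5 of 15 genes, 64.6 per Mb (34.4 to 111), and 7 of the 13 lay in tara. Relative to all deep introns their density was 4.60, and 1.75 when the limit was set at 10000 bp. Nuclear receptors and ecdysone response genes held 18 in 6 of 14, 56.1 per Mb (33.2 to 88.6). Signalling receptors, ligands and transducers held 30 in 16 of 47, 44.4 per Mb (29.9 to 63.4), and neural and mesodermal transcription factors 25 in 11 of 51, 25.6 per Mb (16.6 to 37.9). Segmentation and patterning factors had 6 in 2 of 6 genes, 37.8 per Mb (13.9 to 82.3), and Hox genes 4 in 1 of 8, 23.7 per Mb (6.46 to 60.7); both intervals include 14.0.

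Lists near or below the overall density were those of adhesion, cytoskeleton, RNA-binding and channel genes. Cell adhesion and axon guidance genes held 32 peaks in 15 of 67 genes, 12.9 per Mb (8.81 to 18.2), and cytoskeleton and muscle genes 4 in 3 of 32, 10.9 per Mb (2.98 to 28.0). RNA-binding proteins had 7 in 5 of 22, 6.39 per Mb (2.57 to 13.2). Ion channels and synaptic proteins had 3 in 2 of 44, 2.65 per Mb (0.546 to 7.73), although they contained 1.13 Mb of deep intronic sequence. The 2 channel-list hosts were dnc, the cAMP phosphodiesterase gene, with a peak of signal 91.3, and rg, whose stronger peak of 80.5 also lies in CG15465. Regions of the pooled list were also fewer there, 100.6 per Mb against 298 in chromatin regulators, and what part that has in the densities was not tested. The only listed gene of the ZAD zinc finger family with deep intronic sequence held none.

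**Figure D5:**
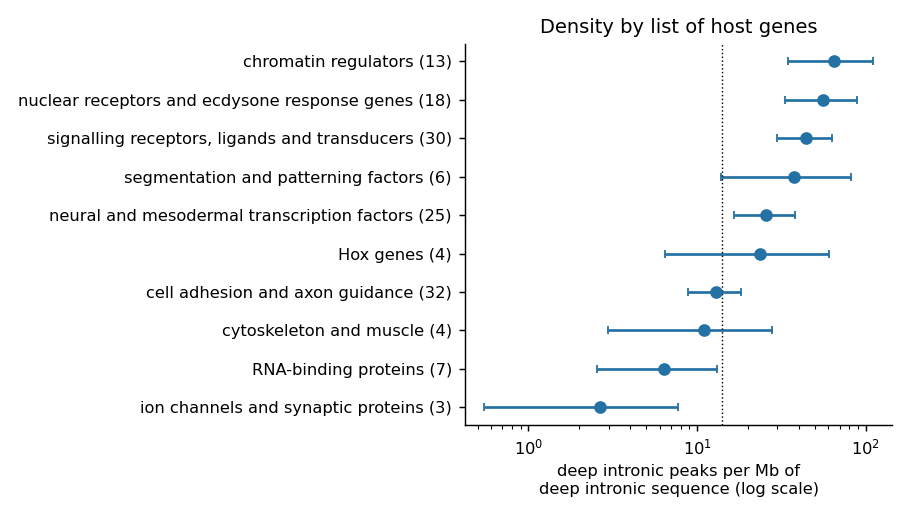
Deep intronic peaks per Mb of deep intronic sequence (log scale) in each list of host genes, with exact Poisson 95% intervals and the number of peaks in brackets. The dotted line marks 14.0 per Mb over all deep intronic sequence; chromatin regulators stand at 64.6 and ion channels and synaptic proteins at 2.65.

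Among chromatin regulators, the strongest deep intronic peak was in jing, a zinc finger factor, with 148 in replicate 1 and 205.4 in replicate 2. The gene tara, whose product links trithorax function to cell cycle control, held 7 peaks within 34.7 kb, from 62.4 to 220. Mi-2, the nucleosome remodelling ATPase, had 1 peak (72.4 and 81.0) that also lies in Su(Tpl), Psc, a Polycomb group gene, 1 (55.5 and 84.8), and trx, a histone methyltransferase gene, 1 (50.3 and 81.5). Replicate 2 was the higher at the strongest peak of each of these genes, but not at every peak, since one in jing had 40.02 and 25.05.

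Among nuclear receptor genes of the ecdysone response, Hr3, Eip75B and Hr4 each held a strong peak, and the peaks of ftz-f1 were weaker. Hr3 had 1 peak, at 144 in replicate 1 and 203 in replicate 2, which also lies in CG12912 and CG46321. Eip75B had 6, the strongest at 124 and 166 with a matrix match and the weakest with a pooled signal of 87.7. Hr4 had 3, led by one at 108 and 165. The gene ftz-f1 had 5, between 65.3 and 125, all within an overlapping noncoding gene, lncRNA:CR45939, so the host cannot be told apart. Of these, Eip75B also had a promoter peak, at 219, and the others had none.

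In signalling genes the peaks named by strength lay in fz, Dad, Wnt4 and nkd. The receptor gene fz held 4, with pooled signals of 312, 206, 104 and 100. Dad, encoding an inhibitory Smad of Dpp signalling, had 2, the stronger with 114 in each replicate. Star (S), required for export of an EGF receptor ligand, had 3, led by one at 74.8 and 129, and Raf, the kinase downstream of that receptor, had one with a pooled signal of 258. The gene cv-2, a BMP-binding protein, had a peak of 228. The gene rdx, which encodes a Cul3 adaptor acting on the Hedgehog effector Ci, held 5 between 63.1 and 260. All of these sites had a signal in both replicates, but so did every deep intronic peak. The authors selected the list for reproducibility, so this does not set the signalling genes apart.

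Several transcription factor and corepressor genes held groups of peaks. The gene sbb, a nuclear corepressor, held 8 peaks, the most of any host, between 12.8 and 30.6 kb from its 5′ end, with pooled signals from 63.4 to 267 and a promoter peak of 348. The gene hth had 5 from 65.9 to 132, Antp 4 from 71.9 to 122 with the overlapping CG46458, and Snoo, a Ski family corepressor, 4 from 62.8 to 162. Factors with weaker or single peaks were pnt (153), apt (148), jumu (146), ct (113), ush (104) and cad (61.5). The gene simj held 5 from 81.1 to 335, all between 14.0 and 19.5 kb from its 5′ end. They included close pairs, with summits at 18.18 and 18.38 kb and at 19.26 and 19.47 kb. JIL-1, a chromosomal kinase of histone tails, had one at 315.

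Adhesion and guidance genes were led by kirre, which held 7 peaks between 172 and 306 kb from the 5′ end of its 394 kb. One of them reached 595 and the other 6 lay between 61.1 and 122, so a single site carried most of the signal. The genes NetA and ed had 4 each, from 60.6 to 166 and from 64.3 to 119, Fas3 had 1 at 143, and Ten-m 1 at 143 that overlaps lncRNA:CR45962. Other genes with several peaks were cv-c (5, from 61.1 to 79.8), sick (4, from 64.7 to 172) and SKIP (4, from 62.3 to 129). Lrch held a peak of 352 with a neighbour of 225 whose summits lay close together. Among the remaining lists, spir led cytoskeletal genes at 141, and how (113), brat (108), Rbfox1 (104) and pum (96.9) led RNA-binding proteins.

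Neighbouring summits were a small part of the class. Another thresholded summit lay within 500 bp of 33 deep intronic peaks (8.31%), against 11.0% of all thresholded peaks, and the median distance to the next summit was 6400 bp against 4752 bp. Several hosts with many peaks held such close summits, among them simj, rdx, tara, Eip75B, ftz-f1 and Antp. Their counts of peaks therefore include summits that may belong to the same site. With summits within 500 bp merged, 380 deep intronic peaks remained, 10.1% of the merged list. Peaks that share a host or overlap share their surroundings and are not independent observations.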

How the data were processed

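The authors called peaks per replicate and on pooled reads, each against a control, and derived the thresholded list by irreproducible discovery rate, per the deposited README texts. No source used here names the aligner, the peak caller, their versions or the threshold. The deposited signal of each peak is the authors' own value, not scaled to depth; read depth is unknown, so no error from read counting can be given. The thresholded list had 3995 peaks, and replicates 1 and 2 were grouped by their labels. The dm3 lists were not used.

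Summits (dm6) were classed with Ensembl release 115 gene models on 6 arms; sequence came from RefSeq, and every peak lay within its arm. Replicate values are those of the overlapping region with the nearest summit. Windows reached 50 bp to either side of a summit, 101 bp in all. The matrix (22 positions) started from 75 sites in the 1500 strongest other peaks and was refined in 6 rounds to 96 sites; whether it reflects binding by CG18476 was not tested. Members and the 11 gene lists were chosen with earlier results of these data known. Named genes are the hosts of the 25 strongest members, hosts with 4 or more, up to 4 hosts per list, the farthest, weakest and nearest the limit; others were named after their values were seen. No p-values were computed, since 1 group was measured and peaks are not replicates. Classing, matching and scanning were tested on simulated data. Python 3.11.15, NumPy 2.4.6, pandas 2.3.3, SciPy 1.17.1 and Matplotlib 3.10.9 were used. Alternatives changed the distance limit, the position that decides, the gene set, the replicate, the overlap, the window and the part of the list.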

Additional observations from a re-analysis of the deposited data

How the results depend on the processing

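No paired analysis was possible because the study has 1 group. Of the 48 alternative values for the main results, 25 stayed within 1.5 times a count, within the interval or within the replicates' spread, and 23 moved. Limits of 2500 and 10000 bp gave 695 and 153 peaks (17.4% and 3.83% of the list), 0.604 and 0.298 of the density over the arms, 9.69% and 7.05% of pooled regions entering, and 1.64 and 0.399 times the main number of hosts (11.8% and 12.5% of genes). Protein-coding genes alone gave 11.3% of the list. The stronger 50% of the list held 162 (8.11%), at 0.384 of the density over the arms. Of these, 73.5% were matched in both replicates (76.6% of all peaks in that part), and the G+C difference from the flanks was -6.52 percentage points. The matched share was 71.5% with 1 bp of overlap (76.5% of all peaks), 47.6% at 0.8 (47.7%) and 88.7% against all regions of each replicate (87.9%). The G+C difference was -7.84 within 25 bp and -5.08 within 100 bp of the summit. Taking either replicate's strongest regions alone gave 376 to 401 peaks, 252 to 261 hosts and a G+C difference of -7.10 to -6.48. Relative to all deep introns, density at 10000 bp fell from 4.60 to 1.75 in chromatin regulators, rose from 1.83 to 3.62 in neural and mesodermal factors and turned to 1.22 in adhesion genes, and in cytoskeletal genes to 1.08 at 2500 bp. The matrix alternatives were added after seeing the data: 5.54% of windows matched within 25 bp, 11.3% within 100 bp, 12.3% in the stronger 50%, 10.3% at either lower minimum score, and 7.98 to 9.04% in single replicates. The causes were not tested. Depth is unknown, and 12 peaks beyond 30 kb limit that bin.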
